A study of Rattus norvegicus with 65 samples.

Results

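The genes described here are 10 genes that mark endothelial cells, the cells that line blood vessels: Cldn5, Pecam1, Cdh5, Kdr, Flt1, Tek, Tie1, Nos3, Eng and Egfl7. They were chosen by name and looked up in a table of estimated counts of 14554 genes in cultures of primary cardiomyocytes, which are the muscle cells of the heart, from neonatal rats. Of the 10 genes 9 were in the table, and Pecam1 was not analysed here. All 9 passed the count filter. The cultures received for 6 or for 24 hours 10 mM 5-fluorouracil (5FU), an anticancer drug that resembles uracil, 2.5 mM acetaminophen (Ace), a painkiller, or 1.25 μM doxorubicin (Dox), an anticancer drug that binds DNA and topoisomerase II. Since each drug was given in DMSO, each time had 2 control groups. DMSO1 cultures were given 1% DMSO, the share that came with 5FU, and DMSO2 cultures 0.25%, the share that came with Ace and with Dox. Drug and control were compared at the same time and DMSO share. Before treatment all cultures were kept in plating medium with serum and then overnight without serum. The 65 libraries of polyA RNA fall into 10 groups: at 6 hours 6 libraries each of DMSO1, 5FU and Ace and 7 each of DMSO2 and Dox, and at 24 hours 6 each of DMSO1 and 5FU and 7 each of DMSO2, Ace and Dox. Cells from the hearts of several litters were pooled and then plated, so that the libraries are parallel cultures of a single cell preparation. The p-values therefore measure the spread between cultures and not between animals.

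Endothelial cells are a minority in cultures made from newborn hearts, where they are carried along with the muscle cells, fibroblasts and other cells of the tissue. Neighbouring endothelial cells are held together by VE-cadherin (Cdh5), the cadherin of their adherens junctions, and by claudin-5 (Cldn5), the main claudin of their tight junctions. VEGF reaches them through the tyrosine kinase receptors VEGFR2 (Kdr), which carries most of the growth signal, and VEGFR1 (Flt1), which binds VEGF tightly and limits it. Angiopoietins act through Tie2 (Tek), with which the related receptor Tie1 forms complexes. Endothelial nitric oxide synthase (Nos3) makes the nitric oxide that relaxes vessels, endoglin (Eng) is a co-receptor for BMP9, BMP10 and TGF-beta with the kinase Acvrl1, and Egfl7 is a protein that endothelial cells secrete into the matrix. Endoglin is also made by activated fibroblasts and by macrophages, and is the least restricted of the 9 genes.

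Many endothelial genes are switched on by ETS factors such as Erg and Fli1, which bind sites with a GGAA core. The 250 bases before the start site of 3 genes are printed because these genes mark the ends of what follows: Cldn5 and Tie1 were among the genes that fell most with Dox at 24 hours, and Eng was the gene that rose. The sequences come from RefSeq (rat assembly GRCr8) and are written 5′ to 3′ on the strand of the gene. Capitals mark matches to the ETS core searched, GGAAG, or to its reverse complement CTTCC. GGAA followed by a base other than G was neither marked nor counted.
Cldn5 promoter, chrchr11:95718599-95718848, minus strand: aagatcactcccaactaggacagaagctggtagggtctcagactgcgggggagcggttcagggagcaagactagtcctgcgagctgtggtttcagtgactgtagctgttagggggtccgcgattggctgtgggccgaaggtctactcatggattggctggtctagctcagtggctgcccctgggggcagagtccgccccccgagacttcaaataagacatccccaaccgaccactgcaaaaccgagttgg
Tie1 promoter, chrchr5:137304982-137305231, minus strand: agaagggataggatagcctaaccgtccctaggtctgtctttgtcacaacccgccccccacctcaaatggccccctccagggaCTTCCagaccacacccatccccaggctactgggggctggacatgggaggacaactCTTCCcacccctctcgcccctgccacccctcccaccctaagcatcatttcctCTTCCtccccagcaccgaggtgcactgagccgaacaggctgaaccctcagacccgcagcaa
Eng promoter, chrchr3:36332029-36332278, plus strand: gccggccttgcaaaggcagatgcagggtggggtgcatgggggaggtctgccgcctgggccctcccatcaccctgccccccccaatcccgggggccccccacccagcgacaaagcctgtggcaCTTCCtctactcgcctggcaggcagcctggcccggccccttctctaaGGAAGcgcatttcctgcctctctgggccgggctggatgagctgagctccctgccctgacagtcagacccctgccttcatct
Windows of this length were at hand for 7 of the 9 genes, without Cdh5 and Tek. Egfl7 had 2 windows, so that there were 8. GGAAG on either strand was in 6 of the 8 windows, from 6 of these 7 genes, with 3 matches for Tie1, 2 for Eng and 0 for Cldn5. This is a common string, present in 63.3% of 33469 rat promoter windows. The GATA string AGATAA was in 0 of the 8 windows, against 10.3% of all windows, and the SOX string ACAAAG was in 2 of 8, against 16.3%. A match is a string of letters and not a bound site, and a window without one says nothing about the factor.

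Library totals ran from 14332827 to 25738297 counts. Levels are given as CPM, counts divided by the library total, after TMM scaling, which corrects that total for a few dominant genes, with factors from 0.859 to 1.07. The lowest counts of a gene in any library were 0 for Cldn5 and between 63 (Tek) and 536 (Eng) for the other 8 genes, so that Cldn5 is the gene whose values are most limited by depth. Transcript lengths are not used here, and levels are compared between groups and not between genes. All 180 pairs of libraries of the same group differed by more than sampling noise (smallest chi-square per gene 2.84). The 14 cardiomyocyte markers on the list (Myh6, Tnnt2, Ttn and others) summed to a median of 52038 CPM in DMSO2 at 24 hours, the 12 fibroblast markers to 16731 CPM, and the 9 endothelial genes to 427 CPM. The cultures thus held RNA of muscle cells, fibroblasts and endothelial cells. In bulk samples such as these, fewer cells of a type and less RNA per cell cannot be told apart. In 5 libraries at least 7 of the 9 genes were the lowest or the highest of their group. Library 4 of Dox at 6 hours held the highest value for 8 genes, library 5 of Ace at 6 hours for 7 and library 7 of Ace at 24 hours for 7. Library 1 of DMSO1 at 24 hours held the lowest value for 7 genes and library 7 of Dox at 24 hours, the most deeply counted of all, for 8. Libraries are numbered within a group as names only. Counts of called genes without these 5 libraries are given beside the results. The 5 libraries were picked by the values of the 9 genes themselves, so these counts are no independent check.

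Each of the 9 genes was detected in every control library. Cldn5 ran from 9.91 to 11.6 CPM (median 11.01) in DMSO2 at 6 hours and from 19.5 to 33.7 CPM (median 24.3) at 24 hours. Its level over the 10 groups followed the order DMSO2 24 h, DMSO1 24 h, Ace 24 h, DMSO2 6 h, 5FU 24 h, Ace 6 h, DMSO1 6 h, Dox 6 h, 5FU 6 h and Dox 24 h, and of the 9 steps between neighbours 6 were larger than the larger SD. The steps that were not were those from Ace 24 h to DMSO2 6 h, from Ace 6 h to DMSO1 6 h and from 5FU 6 h to Dox 24 h. Cdh5 was highest in DMSO2 at 24 hours, with a mean of 101 ± 11.6 CPM (SD, n = 7), and lowest in Dox at 24 hours, a 12.6-fold span, with 5 of 9 steps beyond the larger SD. The span between the highest and the lowest group mean was 9.10-fold for Tie1, 6.27-fold for Tek, 5.99-fold for Kdr, 4.62-fold for Egfl7, 4.62-fold for Eng, 3.38-fold for Nos3 and 1.77-fold for Flt1. Flt1 was thus the most even of the 9 genes, with 1 of its 9 steps beyond the larger SD. Dox at 24 hours was the lowest group for Cldn5, Cdh5, Tek, Tie1 and Egfl7, Dox at 6 hours for Kdr, 5FU at 24 hours for Nos3 and Eng, and Ace at 24 hours for Flt1. Eng differed from the rest in that both Dox groups stood at the top of its order.

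**Figure D1:**
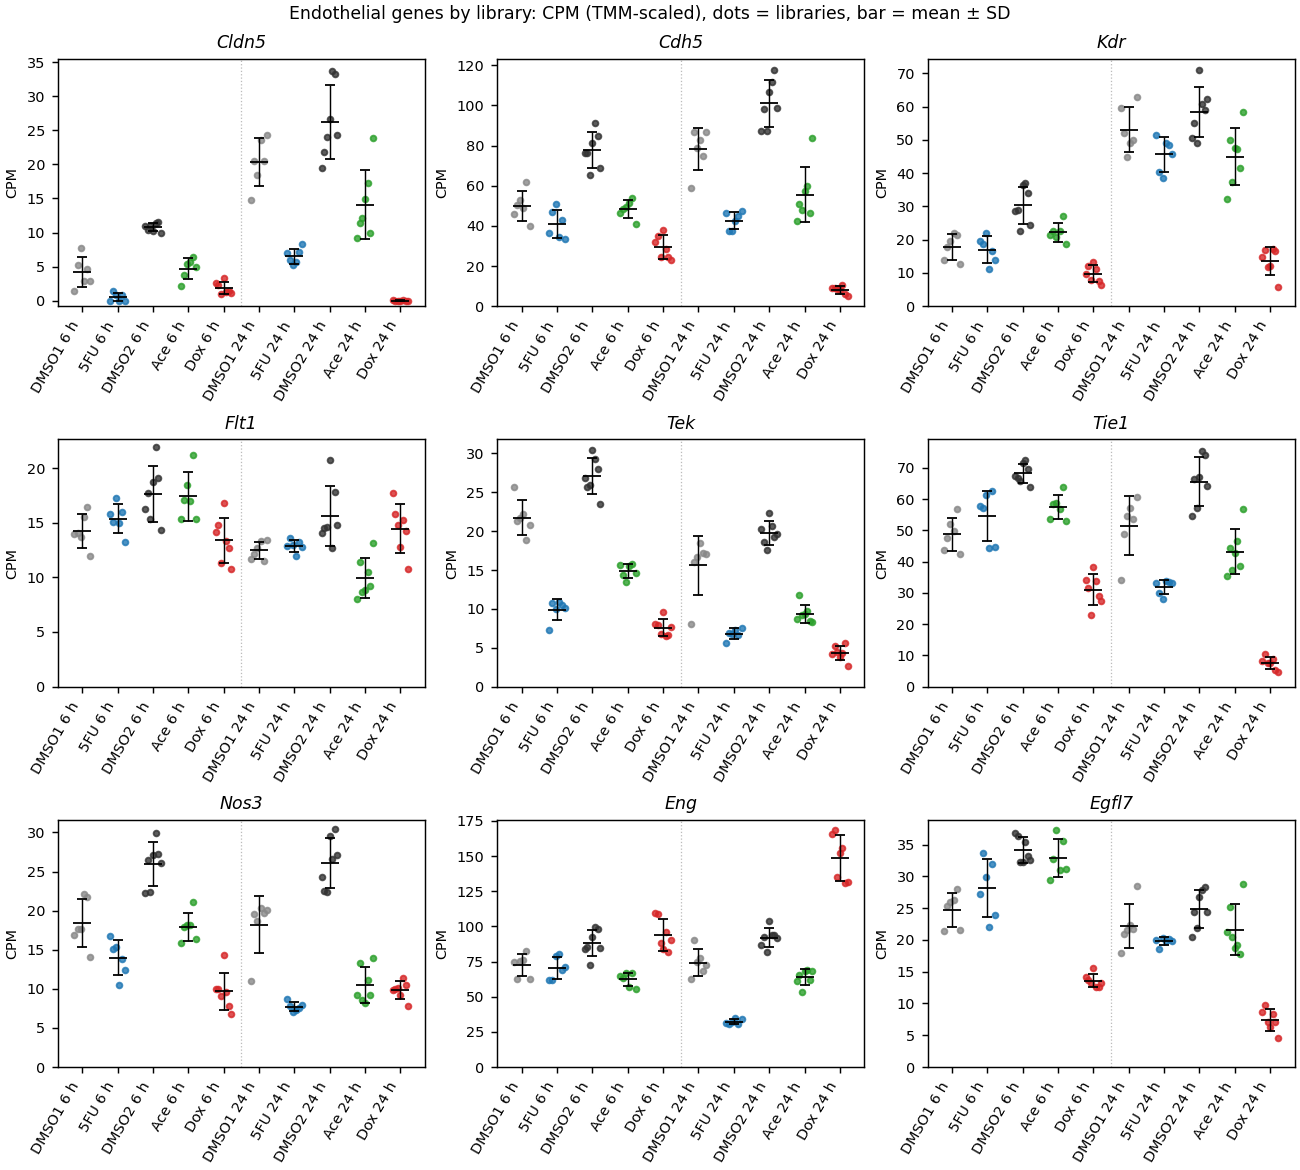
Level of the 9 endothelial genes in every library (CPM, TMM-scaled, linear axis), a panel for each gene, with the 10 groups along the horizontal axis. Each point is a library and the bars are the mean ± SD of a group: Cldn5 is at or near 0 in the 7 libraries of Dox at 24 hours, whereas Eng is between 131 and 169 CPM there and between 81.9 and 104 CPM in DMSO2.

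With Dox, nearly the whole set fell, and it fell by more at 24 than at 6 hours for the junction genes. A gene was called at an FDR below 0.01 over all 14554 genes in edgeR's quasi-likelihood test. At 6 hours 8 of the 9 genes were called lower and 0 higher, against 64.2% of all genes called in either direction and 32.7% of all genes called lower. The median log2 fold change of the 9 genes was -1.40, and that of all genes was 0.00. At 24 hours 7 were called lower and 1 higher, against 81.4% of all genes called, 41% lower and 40.4% higher, and the median of the 9 genes was -2.11. The values of the 9 genes did not overlap between drug and control for 7 genes at 6 hours, against 42.6% of all genes, and for 8 genes at 24 hours, against 68.2%. Since most genes in the table moved with Dox at 24 hours, being called there says little, and the direction and the size of the changes carry the description. Without the 5 libraries named above the counts were 8 lower at 6 hours and 7 lower and 1 higher at 24 hours.

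Cldn5 fell furthest of the 9 genes with Dox at both times, and at 24 hours Cdh5 came next. Cldn5 dropped from 9.91 to 11.6 CPM in DMSO2 to 0.978 to 3.29 CPM (median 1.38) at 6 hours, a log2 fold change of -2.51 (SE 0.28, FDR = 4.17e-12). At 24 hours the 7 Dox libraries held 1, 0, 0, 0, 3, 0 and 0 counts of Cldn5, at most 0.173 CPM, while the 7 DMSO2 libraries held 19.5 to 33.7 CPM. With 3 counts a library taken as the floor, Cldn5 was at least 158-fold lower in Dox than in DMSO2 at 24 hours (FDR = 8.07e-27), and at least 11.3-fold lower than in Dox at 6 hours. Cldn5 is the gene of the 9 that Dox brought to the limit of detection.

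Cdh5, the VE-cadherin of the adherens junction, ranged from 65.4 to 91.1 CPM (median 76.2) in DMSO2 at 6 hours and from 23.2 to 38.2 CPM (median 28.3) in Dox, a log2 fold change of -1.40 (SE 0.12, FDR = 1.90e-16). At 24 hours it ranged from 87.0 to 117 CPM (median 98.5) in DMSO2 and from 5.08 to 10.4 CPM (median 8.38) in Dox. This was a 12.7-fold decrease, -3.66 on the log2 scale (SE 0.14, FDR = 1.46e-34). Unlike Cldn5 it stayed well above the counting limit in every library, with 107 counts or more. The decrease was larger at 24 than at 6 hours (log2 difference of the effects -2.26, FDR = 8.25e-18).

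Among the receptors, Tie1 and Tek fell with Dox at both times, Kdr fell at both times, and Flt1 was called lower at 6 hours and not at 24 hours. Tie1 ranged from 63.8 to 72.5 CPM (median 67.4) in DMSO2 and from 22.9 to 38.2 CPM (median 31.6) in Dox at 6 hours, and from 54.7 to 75.5 CPM (median 66.3) and from 4.76 to 10.4 CPM (median 7.42) at 24 hours. The log2 fold change went from -1.14 (SE 0.11, FDR = 6.19e-15) to -3.14 (SE 0.12, FDR = 1.34e-33), the latter an 8.83-fold decrease. As for Cdh5, the effect differed between the times (log2 difference -2.003, FDR = 1.52e-17).

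Tek, the angiopoietin receptor, ranged from 23.6 to 30.4 CPM (median 26.9) in DMSO2 and from 6.46 to 9.55 CPM (median 7.70) in Dox at 6 hours, and from 17.5 to 22.3 CPM (median 19.7) and from 2.66 to 5.57 CPM (median 4.39) at 24 hours. The log2 fold changes were -1.83 (SE 0.11, FDR = 3.87e-23) and -2.21 (SE 0.12, FDR = 2.54e-26), and their difference of -0.37 was not called (FDR = 0.0334). Tek had the largest decrease of the 9 genes at 6 hours after Cldn5, with no Dox library reaching the range of the controls at either time.

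Kdr, the main VEGF receptor, ranged from 22.7 to 37.0 CPM (median 28.9) in DMSO2 and from 6.46 to 13.4 CPM (median 9.69) in Dox at 6 hours (log2 -1.64, SE 0.16, FDR = 6.44e-14). At 24 hours it ranged from 49.1 to 71.0 CPM (median 59.1) in DMSO2 and from 5.65 to 17.3 CPM (median 14.8) in Dox (log2 -2.11, SE 0.16, FDR = 1.04e-19). The groups stood apart at both times. At 24 hours 6 of the 7 Dox libraries lay between 11.8 and 17.3 CPM, and library 7, which stood apart for most of the genes, was at 5.65 CPM. Flt1 ranged from 14.3 to 21.9 CPM (median 17.7) in DMSO2 and from 10.8 to 16.8 CPM (median 13.3) in Dox at 6 hours, a small decrease (log2 -0.40, SE 0.10, FDR = 0.000407) with overlapping groups. At 24 hours the ranges were 12.7 to 20.8 CPM (median 14.6) and 10.7 to 17.7 CPM (median 14.8), and the log2 difference was -0.11 (SE 0.10, FDR = 0.291, 95% interval -0.31 to 0.09). Of the 2 VEGF receptors, Kdr thus lay below its control at 24 hours with no overlap, and Flt1 overlapped with its control.

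Nos3, the nitric oxide synthase, fell with Dox at both times. It ranged from 22.3 to 30.0 CPM (median 26.5) in DMSO2 and from 6.82 to 14.4 CPM (median 9.64) in Dox at 6 hours, and from 22.4 to 30.4 CPM (median 26.6) and from 7.79 to 11.4 CPM (median 9.91) at 24 hours. The log2 fold changes were -1.42 (SE 0.12, FDR = 2.62e-16) and -1.42 (SE 0.12, FDR = 9.56e-17), with a difference of 0.01 between the times (FDR = 0.976). Nos3 overlaps in the annotation with Atg9b, an autophagy gene, and kallisto was run with its default settings, which do not use strand, so that strand did not separate reads from sequence the 2 genes share. Atg9b was at 0 to 0.160 CPM (median 0.114) in DMSO2 and at 8.62 to 12.8 CPM (median 10.9) in Dox at 24 hours (log2 6.77, SE 0.33, FDR = 2.37e-28), and at 0.240 to 0.829 CPM (median 0.353) in Dox at 6 hours. Its part in the Nos3 values at 24 hours was not tested. The Nos3 value at 6 hours stands beside an Atg9b level below 1 CPM.

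Egfl7 ranged from 32.2 to 36.9 CPM (median 33.2) in DMSO2 and from 12.6 to 15.5 CPM (median 13.2) in Dox at 6 hours (log2 -1.33, SE 0.10, FDR = 1.33e-18). At 24 hours it ranged from 20.5 to 28.4 CPM (median 24.4) in DMSO2 and from 4.60 to 9.69 CPM (median 7.12) in Dox (log2 -1.76, SE 0.11, FDR = 1.98e-23). The decrease was larger at the later time (log2 difference -0.43, FDR = 0.00744), but this call was lost in 13 of the 28 fits that leave out a library, most of all without library 7 of Dox at 24 hours (log2 difference -0.31, FDR = 0.0404). Egfl7 shares its locus with Agpat2 in the annotation, whose log2 fold change with Dox at 24 hours was -0.996.

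Eng went the other way. It ranged from 72.6 to 99.8 CPM (median 85.1) in DMSO2 and from 81.9 to 109 CPM (median 90.6) in Dox at 6 hours, with overlapping groups (log2 0.09, SE 0.08, FDR = 0.258). At 24 hours it ranged from 81.9 to 104 CPM (median 92.3) in DMSO2 and from 131 to 169 CPM (median 152) in Dox, with no overlap, a rise of 0.69 on the log2 scale (SE 0.07, FDR = 7.02e-13). The effect was higher at 24 than at 6 hours (log2 difference 0.60, FDR = 1.18e-06). The summed level of the 9 genes in Dox at 24 hours was 173 to 246 CPM (median 212) against 375 to 475 CPM (median 427) in DMSO2, so that the sum fell less than most of its genes.

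**Figure D2:**
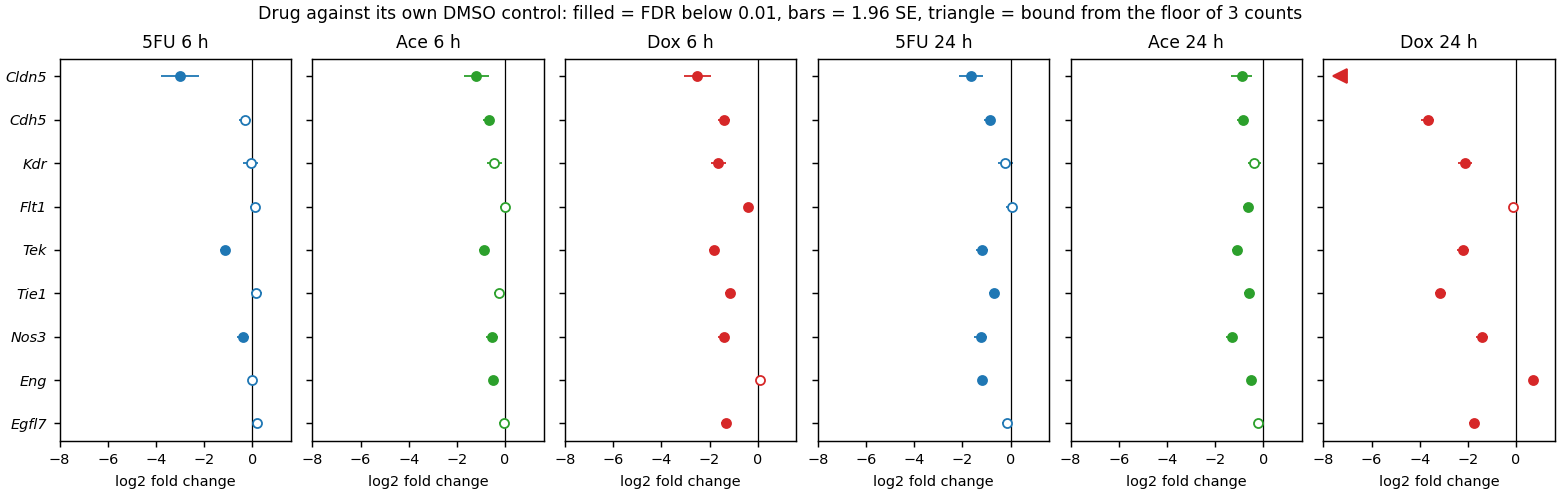
Log2 fold change (horizontal axis) of each of the 9 endothelial genes, a panel for each drug and time, relative to the matching DMSO group. Bars are approximate 95% intervals from an SE derived from the F value of edgeR's test. Filled points were called at an FDR below 0.01. With Dox at 24 hours Cdh5 (-3.66) and Tie1 (-3.14) lie furthest below 0 among the genes drawn at their fitted value and Eng (0.69) lies above 0. A triangle marks Cldn5 there as a bound.

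With Ace most of the 9 genes were lower than in DMSO2. At 6 hours 5 of the 9 were called lower (Cldn5, Cdh5, Tek, Nos3 and Eng) and 0 higher, against 31.7% of all genes called and 15.2% called lower. At 24 hours 7 were called lower and 0 higher, against 37.2% called and 19.1% lower. The medians of the 9 log2 fold changes were -0.50 and -0.65. The groups did not overlap for 5 genes at 6 hours, against 24.5% of all genes, and for 4 at 24 hours, against 26.9%. Without the 5 libraries that stood apart, 6 genes were called lower at 6 hours, with Kdr added (log2 -0.51, FDR = 0.0021), and 9 at 24 hours, with Kdr (log2 -0.45, FDR = 0.0017) and Egfl7 (log2 -0.29, FDR = 0.0039) added. The Ace library left out at each time was chosen because it held the highest value for 7 genes. Leaving it out lowers the Ace means of those genes by construction, so the higher counts are no independent support.

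The largest decreases with Ace at 6 hours were those of Cldn5 and Tek. Cldn5 was between 2.18 and 6.44 CPM (median 5.16) with Ace, below all 7 control libraries (log2 -1.19, SE 0.26, FDR = 0.000113). Tek was between 13.5 and 15.7 CPM (median 15.1), again below all controls (log2 -0.86, SE 0.11, FDR = 1.18e-09). Cdh5 was between 40.7 and 53.7 CPM (log2 -0.68, FDR = 3.67e-06), Nos3 between 15.8 and 21.1 CPM (log2 -0.54, FDR = 0.000213) and Eng between 55.4 and 66.6 CPM (log2 -0.50, FDR = 3.85e-07), each without overlap with DMSO2. Flt1 (log2 -0.02), Egfl7 (-0.06), Tie1 (-0.25, FDR = 0.0529) and Kdr (-0.45, FDR = 0.0147) were not called. Tie1 passed the threshold when only the compared groups were in the fit (log2 -0.25, FDR = 0.000309). Kdr passed the threshold when library 5 of Ace at 6 hours, or library 3 or 7 of DMSO2 at 6 hours, was left out (FDR = 0.00707 to 0.00945), or when only the compared groups were in the fit (FDR = 0.00279).

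At 24 hours Nos3 and Tek had the largest decreases with Ace. Nos3 was between 8.21 and 13.9 CPM (median 9.24), below all 7 DMSO2 libraries (log2 -1.32, SE 0.12, FDR = 1.71e-14), and its decrease was larger than at 6 hours (log2 difference -0.78, FDR = 0.000419). Tek was between 8.36 and 11.8 CPM (median 9.25, log2 -1.08, SE 0.11, FDR = 4.35e-13). Both synthase and receptor thus stood well apart from the control cultures. Cldn5 was between 9.24 and 23.8 CPM (median 12.2, log2 -0.90, SE 0.22, FDR = 0.000504), where library 7 of Ace at 24 hours reached into the control range. Cdh5 was between 42.5 and 83.8 CPM (median 51.1, log2 -0.86, SE 0.11, FDR = 3.33e-09), the highest value again being that of library 7.

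Flt1 moved with Ace at 24 hours, between 7.99 and 13.1 CPM (median 9.21, log2 -0.65, SE 0.10, FDR = 2.79e-07), and its effect was lower than at 6 hours (log2 difference -0.63, FDR = 0.000946). Tie1 (log2 -0.61, FDR = 1.30e-06) and Eng (log2 -0.53, FDR = 2.41e-08) fell as well. Kdr, with 32.4 to 58.4 CPM (median 47.4), was not called (log2 -0.38, FDR = 0.0236) and was called when library 7 was left out (FDR = 0.00860) or with only the compared groups in the fit (FDR = 0.00435). Egfl7 was not called (log2 -0.20, FDR = 0.0786). Of the 9 genes these 2 were the ones that did not pass with Ace at 24 hours.

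With 5FU, few of the genes moved at 6 hours and most at 24 hours. At 6 hours 3 of the 9 were called lower (Cldn5, Tek and Nos3) and 0 higher, against 47.9% of all genes called and 24.5% called lower, and the median of the 9 log2 fold changes was -0.08. At 24 hours 6 were called lower and 0 higher, against 55.8% called and 27.8% lower, with a median of -0.87. The share called at 6 hours was below that of all genes. The groups did not overlap for 2 genes at 6 hours, against 28.2% of all genes, and for 6 at 24 hours, against 42.9%. The counts were 3 and 6 lower without the 5 libraries as well.

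Cldn5 was the gene that 5FU lowered most at 6 hours. The 6 libraries of DMSO1 held 1.43 to 7.68 CPM (median 3.82), and those of 5FU held 0, 25, 17, 0, 16 and 0 counts, at most 1.40 CPM, an 8.07-fold decrease (log2 -3.01, SE 0.40, FDR = 3.04e-09). With 3 of the 6 libraries at 0, this fold rests on few counts. At 24 hours the ranges were 14.7 to 24.4 CPM (median 20.5) in DMSO1 and 5.22 to 8.25 CPM (median 6.48) with 5FU (log2 -1.64, SE 0.25, FDR = 8.25e-08). Cldn5 was therefore higher at 24 than at 6 hours with 5FU, as in the controls, and the difference of the 2 effects was not called (log2 1.38, FDR = 0.0186). It passed the threshold without library 2 of 5FU at 6 hours (log2 difference 1.94, FDR = 0.00272) and without library 1 of DMSO1 at 6 hours (1.55, FDR = 0.00599).

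Tek fell with 5FU at both times. It was between 18.9 and 25.7 CPM (median 21.5) in DMSO1 and between 7.22 and 10.9 CPM (median 10.3) with 5FU at 6 hours (log2 -1.14, SE 0.12, FDR = 5.25e-13), and between 8.06 and 18.5 CPM (median 16.9) and between 5.57 and 7.58 CPM (median 6.86) at 24 hours (log2 -1.19, SE 0.12, FDR = 4.02e-13). The difference between the times was -0.06 (FDR = 0.796). Nos3 was between 14.1 and 22.1 CPM in DMSO1 and between 10.5 and 16.8 CPM with 5FU at 6 hours, a small decrease with overlapping groups (log2 -0.40, SE 0.13, FDR = 0.00669). That call did not hold when library 4, 5 or 6 of 5FU (FDR = 0.0292, 0.0107 and 0.0188) or library 4 or 5 of DMSO1 (FDR = 0.0280 and 0.0252) at 6 hours was left out, nor with only the compared groups in the fit (FDR = 0.0149). At 24 hours Nos3 was between 10.9 and 20.3 CPM (median 19.6) in DMSO1 and between 7.05 and 8.67 CPM (median 7.68) with 5FU, without overlap (log2 -1.23, SE 0.14, FDR = 5.78e-12).

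Eng was not called with 5FU at 6 hours and fell at 24 hours. At 6 hours it was between 62.6 and 82.5 CPM (median 74.8) in DMSO1 and between 61.8 and 80.4 CPM (median 70.1) with 5FU (log2 -0.04, SE 0.08, FDR = 0.730). At 24 hours it was between 62.5 and 90.4 CPM (median 73.3) in DMSO1 and between 30.5 and 34.7 CPM (median 31.6) with 5FU (log2 -1.21, SE 0.09, FDR = 2.73e-19). The difference between the times was the largest of the 9 genes with 5FU among those called (log2 difference -1.17, FDR = 1.26e-12). Tie1 showed the same course, from a log2 value of 0.17 at 6 hours (FDR = 0.199) to -0.69 at 24 hours (FDR = 3.79e-07, log2 difference -0.86, FDR = 8.36e-06), and Cdh5 went from -0.29 (FDR = 0.0455) to -0.87 (FDR = 1.34e-08, log2 difference -0.59, FDR = 0.00460). The difference for Cdh5 lost its call without library 2 of 5FU at 24 hours (FDR = 0.0104), library 3 of 5FU at 6 hours (FDR = 0.0145) or library 6 of DMSO1 at 6 hours (FDR = 0.0111), and with library size only in place of TMM (FDR = 0.0162). Kdr (log2 -0.22, FDR = 0.212), Flt1 (0.05, FDR = 0.725) and Egfl7 (-0.16, FDR = 0.191) were not called at 24 hours.

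The change of effect with time, tested as the effect at 24 hours minus that at 6 hours, was called lower for 4 of the 9 genes with 5FU (Cdh5, Tie1, Nos3 and Eng), against 39.5% of all genes called in either direction and 19.2% called lower. It was called lower for 2 with Ace (Flt1 and Nos3), against 11.6% called and 6.06% lower. With Dox it was called lower for 4 (Cldn5, Cdh5, Tie1 and Egfl7) and higher for Eng, against 64.8% called, 30.8% lower and 34% higher. Nos3 thus fell further with time with 5FU (log2 difference -0.84, FDR = 0.000147) and with Ace (-0.78, FDR = 0.000419), and with Dox the difference was 0.01. The part of Atg9b, which overlaps Nos3, in the Dox value at 24 hours was not tested.

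The 3 drugs were set against each other at the given doses, as differences of their effects, with 3 pairs at each of 2 times. Ace and Dox share the DMSO2 libraries, so that their pair is a direct comparison of the 2 drug groups. The doses differ between the drugs and were not matched to each other. The 5FU effect is taken against DMSO1 and those of Ace and Dox against DMSO2, so the DMSO share differs as well. At 6 hours 7 of the 9 genes were lower in DMSO1 than in DMSO2, as given below. At 24 hours the effect of Dox was lower than that of 5FU for 6 of the 9 genes and higher for 1, against 71.1% of all genes called, 35.4% lower and 35.8% higher. Dox was lower than Ace for 6 and higher for 2, against 80.6% called, 39.9% lower and 40.7% higher. Cdh5 was lower with Dox than with 5FU by 2.79 and than with Ace by 2.80 (log2 -2.79, FDR = 1.51e-21, and -2.80, FDR = 1.63e-28). Tie1 (log2 -2.45 and -2.53), Kdr (-1.89 and -1.74), Egfl7 (-1.60 and -1.56) and Tek (-1.01 and -1.13) were lower as well. Cldn5 was at least 84.9-fold lower in Dox than in Ace.

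Nos3 did not share this order. Its effects at 24 hours were -1.23 with 5FU, -1.32 with Ace and -1.42 with Dox, and Dox differed from 5FU by -0.18 (FDR = 0.357) and from Ace by -0.10 (FDR = 0.462, 95% interval -0.35 to 0.15). Atg9b, which overlaps Nos3, was at a median of 10.9 CPM in Dox at 24 hours, and its part in these values was not tested. Eng was higher with Dox than with 5FU (log2 1.90, FDR = 1.59e-23) and than with Ace (1.22, FDR = 4.82e-23), and higher with Ace than with 5FU (0.68, FDR = 1.19e-06). Flt1 was lower with Ace than with 5FU (log2 -0.70, FDR = 0.000109) and than with Dox (Dox minus Ace 0.54, FDR = 3.84e-06). Between the effects of Ace and 5FU at 24 hours these 2 genes, Eng and Flt1, were the ones called of the 9, against 37.3% of all genes.

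At 6 hours the effect of Dox was lower than that of 5FU for 7 genes, against 45.9% of all genes called and 24% called lower. Kdr (log2 -1.56, FDR = 4.62e-08) and Egfl7 (-1.51, FDR = 4.18e-14) differed most. The controls differed too, with Kdr means of 17.9 CPM in DMSO1 and 30.3 CPM in DMSO2 at 6 hours. The part of the controls in these differences was not tested. Dox was lower than Ace for 8 genes and higher for Eng (log2 0.60, FDR = 1.22e-09), against 62.1% called, 31.4% lower and 30.6% higher. The difference between 5FU and Dox at 6 hours was not called for Cldn5, with a wide error (log2 0.50, SE 0.53, FDR = 0.435), nor for Eng (0.13, SE 0.11, FDR = 0.331). The effects of Ace and 5FU differed for 2 genes, against 30.9%: Cldn5 was higher with Ace (log2 1.82, FDR = 0.00235, and 0.0165 with only the compared groups in the fit) and Eng lower (-0.47, FDR = 0.000622). With only the compared groups in the fit Tie1 was called lower with Ace too (log2 -0.41, FDR = 0.00364).

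The 2 controls differed in these genes at 6 hours. With 1% DMSO (DMSO1) 7 of the 9 genes were lower than with 0.25% DMSO (DMSO2) and 0 higher, against 16.5% of all genes called and 6.6% called lower, and 6 did not overlap between the groups, against 5.07% of all genes. Cldn5 was at 1.43 to 7.68 CPM in DMSO1 and 9.91 to 11.6 CPM in DMSO2 (log2 -1.38, SE 0.26, FDR = 4.09e-05). Kdr (log2 -0.76, FDR = 0.000189), Cdh5 (-0.64, FDR = 3.74e-05), Nos3 (-0.50, FDR = 0.00116), Tie1 (-0.49, FDR = 0.000387), Egfl7 (-0.46, FDR = 0.000291) and Eng (-0.29, FDR = 0.00431) were lower too, and Tek (-0.32, FDR = 0.0187) and Flt1 (-0.30, FDR = 0.0225) were not called. Tek was called with only the compared groups in the fit (FDR = 0.00458), and both were with library size only (FDR = 0.00508 and 0.00527). The Eng call did not hold without library 2 or 6 of DMSO1 or library 5 or 6 of DMSO2 at 6 hours (FDR = 0.0116 to 0.0245), nor with only the compared groups in the fit (FDR = 0.0146). Of the 12 fibroblast markers 8 were lower in DMSO1 and 0 higher, and of the 14 cardiomyocyte markers 6 were higher and 1 lower. The summed fibroblast level was 6576 to 10994 CPM in DMSO1 and 9777 to 14558 CPM in DMSO2 at 6 hours, and its part in the result was not tested.

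At 24 hours 0 of the 9 genes were called between the 2 controls, against 0.433% of all genes, although all 9 log2 values were below 0 (median -0.34) and 6 had an unadjusted p below 0.05 in edgeR's test. DESeq2 called 2 of them. The closest in edgeR were Nos3 (log2 -0.53, FDR = 0.0109), called without library 4 of DMSO1 at 24 hours (FDR = 0.00695), and Eng (log2 -0.31, FDR = 0.0189), called without library 2 of DMSO1 (FDR = 0.00649). The 2 groups did not overlap for 2 genes, Cdh5 and Nos3, against 1.7% of all genes.

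Between 6 and 24 hours in the controls, where time in culture and time in DMSO cannot be told apart, some of the genes moved. In the mean of DMSO1 and DMSO2 3 of the 9 genes were called higher and 2 lower, against 64.6% of all genes called, 32.7% higher and 31.9% lower. The 3 and 2 of 9 are near or below these shares and no result about the genes as a group. Cldn5 rose by 1.78 (SE 0.17, FDR = 2.72e-14), Kdr by 1.25 (SE 0.11, FDR = 3.62e-16) and Cdh5 by 0.51 (SE 0.08, FDR = 2.11e-07) on the log2 scale. Tek (log2 -0.47, FDR = 1.43e-07) and Egfl7 (-0.31, FDR = 0.000108) fell. Tie1 (log2 0.01), Nos3 (0.00) and Eng (0.05) differed by less than their error, and Flt1 (-0.19, FDR = 0.0217) was called only without library 4 of DMSO2 at 24 hours (-0.23, FDR = 0.00435). A drug effect at 24 hours in Cldn5 or Kdr is thus measured against a control that had itself risen.

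Further endothelial genes were taken from a list of 40, of which 37 were in the table: von Willebrand factor (Vwf), endomucin (Emcn), adhesion molecules and others. From this and the following lists, the genes named are mostly those with the largest changes among called genes with a mean count of at least 100, so that genes with fewer counts may have changed more. The list counts stand beside these shares of all genes: at 24 hours 41% were called lower and 40.4% higher with Dox, 19.1% and 18.2% with Ace and 27.8% and 28% with 5FU, and at 6 hours 32.7% and 31.5%, 15.2% and 16.5%, and 24.5% and 23.4%. The median log2 fold change of all genes was between -0.00936 and 0.00295 in these comparisons. With Dox at 24 hours 30 of the 37 were called lower and 4 higher, with a median log2 fold change of -1.72. Among the genes that fell were Emcn (log2 -4.43, SE 0.17, FDR = 2.22e-34) and the adhesion receptor Adgrl4 (-3.62, SE 0.14, FDR = 5.89e-33). The protein C receptor Procr (log2 2.79, FDR = 3.98e-32) and the leukocyte adhesion molecule Icam1 (1.18, FDR = 1.82e-17), which other cell types also make, rose. With Ace at 24 hours 29 were lower and 1 higher (median -0.86), among them Ramp2 (log2 -1.63), part of the adrenomedullin receptor, and Vwf (-1.56). With 5FU at 24 hours 26 were lower and 1 higher (median -0.67), among them apelin (Apln, log2 -2.27) and Vwf (-1.99), and the gene that rose with Ace and with 5FU was Icam1 (0.45 and 0.52). At 6 hours the counts were 22 lower and 6 higher with Dox (median -0.94), 25 and 0 with Ace (median -0.70) and 15 and 3 with 5FU (median -0.38), beside 18 lower and 1 higher in DMSO1 against DMSO2 (6.6% and 9.87% of all genes). Without the 5 libraries they were 28 lower and 4 higher with Dox, 28 and 1 with Ace and 28 and 2 with 5FU at 24 hours, and 24 and 6, 27 and 0, and 15 and 3 at 6 hours.

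Of 24 transcription factors that act in endothelial cells 23 were in the table. With Dox at 24 hours 12 were lower and 5 higher (median -0.97). Erg, the ETS factor most restricted to endothelial cells, fell by 2.77 (log2 -2.77, SE 0.14, FDR = 3.22e-27), and Mef2c, which muscle cells also use, by 2.50 (log2 -2.50, SE 0.07). Klf4 (log2 2.69, SE 0.11) and Foxo1 (1.24, SE 0.11) rose. At 6 hours Erg had already fallen with Dox (log2 -1.64, FDR = 4.09e-17), along with Fli1 (-1.61, FDR = 2.66e-16), and of the list 14 were lower and 6 higher. With 5FU at 24 hours 16 were lower and 1 higher (median -0.56), among them Nr2f2 (log2 -1.29), a factor of veins, and with Ace 16 were lower and 1 higher (median -0.58), among them Fli1 (-1.03). In the controls 15 of the 23 rose from 6 to 24 hours and 0 fell, against 32.7% and 31.9% of all genes.

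Ligands and partners of the receptors were followed in lists of their pathways. Of 12 other genes of the VEGF pathway, Vegfa, the ligand of Kdr and Flt1, rose with Dox at 6 hours (log2 1.24, SE 0.15, FDR = 3.36e-11) and at 24 hours (1.04, SE 0.15, FDR = 2.20e-09). With 5FU at 24 hours 10 of the 12 were lower and 0 higher (median -0.98), among them the co-receptors Nrp2 (log2 -1.23) and Nrp1 (-1.21). With Ace at 24 hours 6 were lower and 0 higher, and with Dox 8 were lower and 4 higher (median -0.41), Vegfb among the lower (log2 -1.57). Vegfa thus rose with Dox while its receptor Kdr fell.

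Of 7 angiopoietin pathway genes 6 were in the table. At 24 hours 5 of the 6 were lower and 0 higher with 5FU (median -1.48), 6 and 0 with Ace (median -0.92) and 5 and 1 with Dox (median -2.20). The exception with 5FU was the phosphatase Ptprb (log2 -0.44, FDR = 0.0102), which was not called. With Dox the adaptor Grb14 (log2 -3.68, SE 0.08) and the phosphatase Ptprb (-2.84, SE 0.17) fell furthest and the adaptor Dok2 rose (2.23, SE 0.12). Both ligands were called lower with each drug at 24 hours. Angpt1, the agonist, changed by log2 -2.25 with 5FU (SE 0.26, FDR = 2.12e-11), -1.19 with Ace and -2.52 with Dox. Angpt2, which can act as an antagonist, changed by log2 -1.69 with 5FU (SE 0.18, FDR = 2.90e-12), -0.59 with Ace and -1.88 with Dox. In the controls 5 of the 6 rose with time, against 32.7% of all genes.

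The pathway of endoglin, with 16 of 18 genes in the table, went up with Dox on balance, as Eng did. At 24 hours 11 were higher and 3 lower with Dox (median 0.64), with the BMP target genes Id1 (log2 3.98, SE 0.11) and Id2 (3.04, SE 0.08) in front. The kinase receptor Acvrl1, which is the most endothelial gene of the list, fell instead (log2 -1.89, SE 0.12), as did Tgfbr2 (-1.41, SE 0.06). Acvrl1 fell with 5FU (log2 -1.28, FDR = 2.44e-13) and with Ace (-0.97, FDR = 9.81e-11) at 24 hours too, where 8 genes were lower and 3 higher and 7 lower and 0 higher. Thus the Dox rise of Eng was shared by the Id genes and not by Acvrl1.

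Partners of Cldn5 and Cdh5 in cell junctions, of which all 15 were in the table, showed no common direction with Dox at 24 hours, with 5 lower, 4 higher and a median of -0.02. These genes are used by muscle and epithelial cells as well. N-cadherin (Cdh2), which joins muscle cells, fell by 2.39 (log2 -2.39, SE 0.05) and the junction adhesion molecule F11r rose by 1.81 (SE 0.08). With 5FU 6 were lower and 5 higher and with Ace 3 were lower and 1 higher at that time, the decrease of Jam2 being the largest in both (log2 -0.60 and -0.65).

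Of 25 nitric oxide pathway genes 22 were in the table, and 13 were lower and 8 higher with Dox at 24 hours (median -0.55). The arginine-analogue hydrolase Ddah2 (log2 -2.37, SE 0.08) and the soluble guanylate cyclase subunit Gucy1b1 (-2.06, SE 0.09) fell, and the phosphodiesterase Pde5a (2.81, SE 0.11) and Spr (1.67, SE 0.12), an enzyme that makes the cofactor of Nos3, rose. With 5FU 11 were lower and 5 higher and with Ace 8 were lower and 6 higher. On a list of 11 genes of the Notch pathway or of the difference between arteries and veins, 5 were lower and 4 higher with Dox at 24 hours (median 0.14). These shares are near the 41% and 40.4% of all genes. The connexin Gja5 (log2 -5.49, SE 0.16) and the ligand Dll4 (-3.50, SE 0.18) fell, and Notch1 (2.15, SE 0.14) and Jag2 (2.03, SE 0.08) rose. With 5FU 7 were lower and 2 higher and with Ace 6 were lower and 0 higher. In the controls 10 of the 11 rose with time, against 32.7% of all genes.

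Markers of other cell types moved in the same comparisons. Of 12 fibroblast markers 11 were lower and 0 higher at 24 hours with each drug, with medians of -1.09 (5FU), -1.26 (Ace) and -2.09 (Dox). Their summed level was 15229 to 19018 CPM in DMSO2 and 1957 to 4116 CPM in Dox at 24 hours. Periostin (Postn) had the largest decrease with 5FU (log2 -2.64), Ace (-2.05) and Dox (-2.98). With Dox 11 of the 14 cardiomyocyte markers were lower and 2 higher at 24 hours (median -0.88), their sum going from 44598 to 56709 CPM in DMSO2 to 25020 to 33731 CPM, with Myh6 (log2 -4.13) lowest and Nppa (3.52) highest. Of 12 macrophage markers 11 were lower and 1 higher (median -1.40, and -1.30 with Cd163 at its bound), and of 12 markers of smooth muscle and pericytes 6 were lower and 4 higher. No marker on these lists was at 0 in every library of a group. The part of these other cells in the endothelial values was not tested.

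Some types are close to the endothelial cells of vessels. Of 5 endocardial markers, all in the table, 3 were lower and 2 higher with Dox at 24 hours, 3 were lower with Ace and 4 with 5FU, with Plvap, which capillaries also make, lower in each (log2 -1.09, -1.52 and -1.72). Of 5 lymphatic markers in the table (6 on the list) 3 were lower and 1 higher with Dox, 1 lower with Ace and 3 lower with 5FU. Of 6 epicardial markers 4 were lower and 2 higher with Dox, and of 3 platelet markers (5 on the list) 0 were lower and 1 higher.

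**Figure D3:**
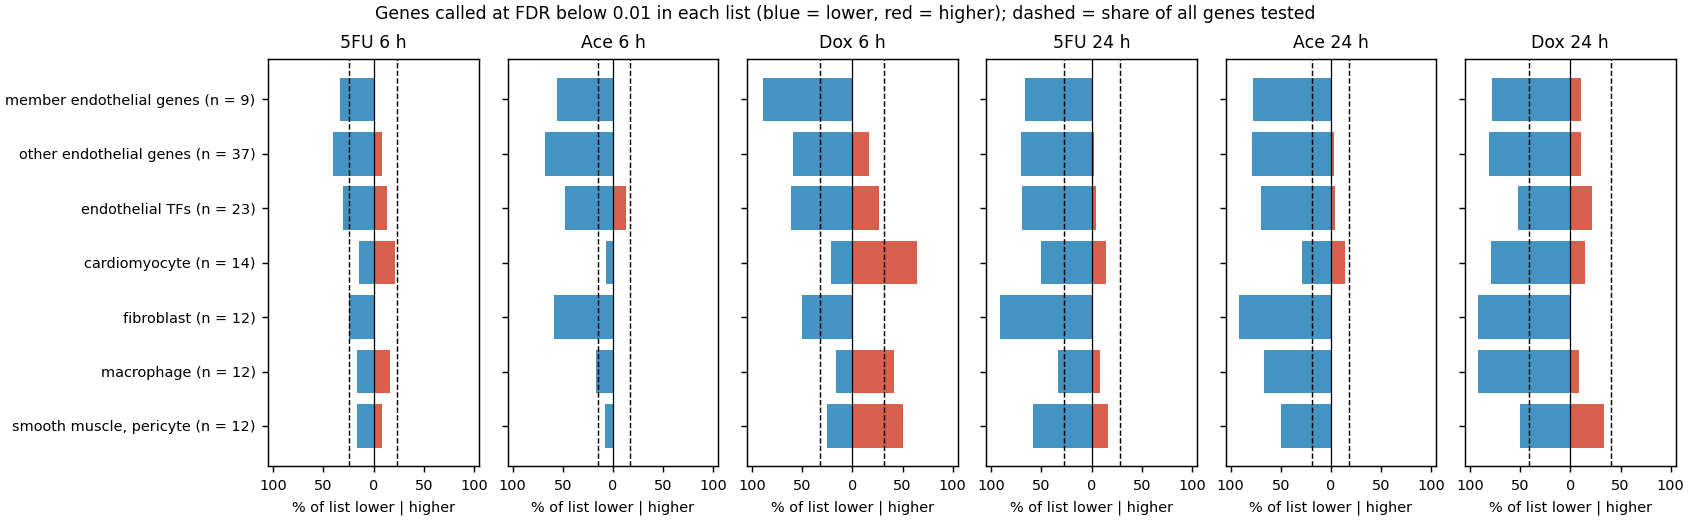
Percent of the genes of a list (horizontal axis) called lower (blue, to the left) or higher (red, to the right) at an FDR below 0.01, a panel for each drug and time, with dashed lines at the share of all genes. At 24 hours the bars of the endothelial and fibroblast lists lie mostly to the left and past the dashed line with each drug, as with the 11 of 12 fibroblast markers, whereas at 6 hours with Dox 9 of the 14 cardiomyocyte markers lie to the right.

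Within groups the 9 genes went up and down together from culture to culture. After the group mean was subtracted from the log2 CPM of each library, the Pearson correlation over the 65 libraries was above 0 for all 36 pairs of genes, with a median of 0.54. It was highest for Cdh5 and Tie1 (0.867) and lowest for Cldn5 and Eng (0.0992). The correlations of Cldn5 rest in large part on 5FU at 6 hours, where some libraries held 0 counts. Its deviations ran from -1.70 to 2.15 there, against -0.121 to 0.103 in DMSO2 at 6 hours. At such low counts their size depends on the prior count. For comparison, the median correlation of the 9 genes with any other gene of the table was 0.00. These points share their cell preparation, their library and its depth, so that the values are a description. The correlation with library total was between -0.351 and -0.0898, and that with the mean of the fibroblast markers was between 0.334 (Flt1) and 0.616 (Cdh5). For Tek (0.590) and Eng (0.466) the fibroblast value was above the median correlation with the other members (0.355 and 0.359). For the rest of the genes it was below that median. The correlation with the mean of the smooth muscle and pericyte markers was between -0.104 (Cldn5) and 0.391 (Tek). That with the mean of the cardiomyocyte markers was between -0.318 (Cldn5) and 0.183 (Kdr).

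Genes chosen after their values were seen, the closest to each of the 9 over the 65 libraries, were in part endothelial too. The closest gene to Cldn5 was the transcription factor Sox18 (0.712), that to Nos3 was Vwf (0.733), and Esam, a junction molecule, was close to Tie1 (0.812) and Egfl7 (0.768). The values for Cldn5 again rest in large part on the low counts of 5FU at 6 hours. Among the 10 closest genes to Tie1 and to Nos3, 6 each were members of the 9 or of the lists of endothelial genes and factors. The number was 5 for Cldn5, Cdh5 and Flt1, 4 for Kdr, 3 for Egfl7, 1 for Tek and 0 for Eng. Eng was closest to Ttc28 (0.817) and to Notch3 (0.791), a receptor of mural cells. Eng and Tek thus had the fewest genes of the 9 or of these lists near them. Genes outside them were not counted, whether endothelial or not.

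**Figure D4:**
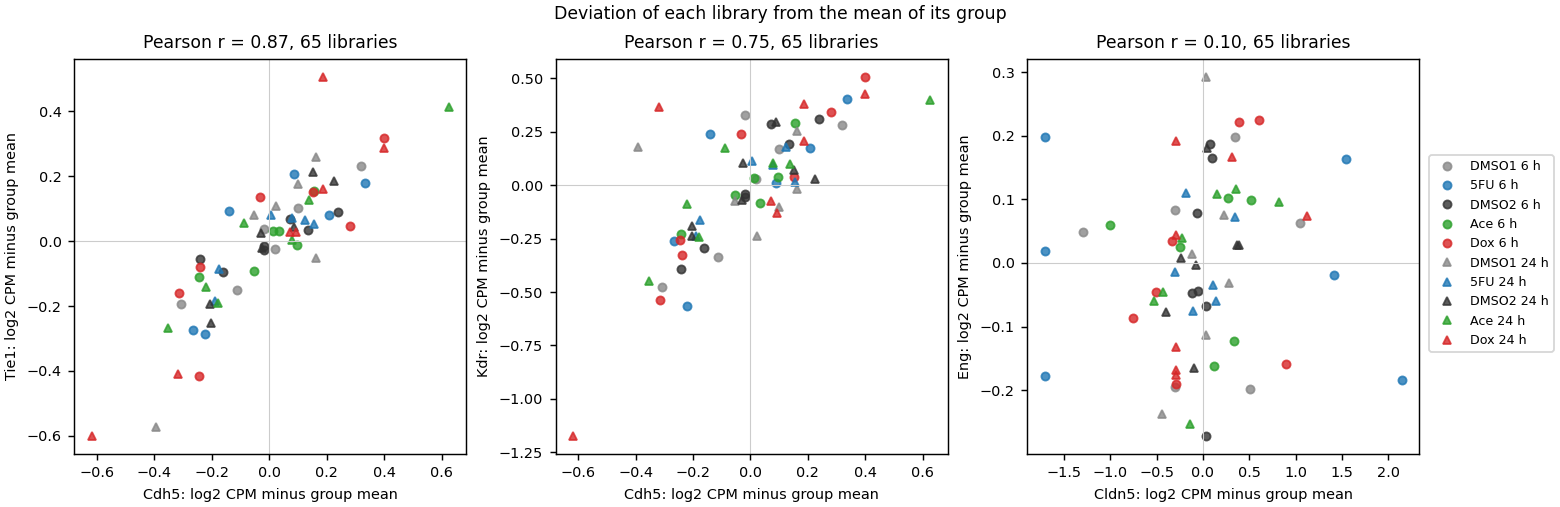
Deviation of each of the 65 libraries from the mean of its group (log2 CPM) for 3 pairs of genes, with a colour for each treatment, circles at 6 hours and triangles at 24 hours. The points lie close to a line for Cdh5 and Tie1 (r = 0.867) and for Cdh5 and Kdr (0.752) and form a loose cloud for Cldn5 and Eng (0.0992). The widest deviations of Cldn5 are those of 5FU at 6 hours, where some libraries held 0 counts.

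Over the 10 group means the 9 genes shared a profile less evenly. The correlation with the mean of their standardized profiles was 0.949 for Tek, 0.903 for Cdh5, 0.903 for Nos3, 0.881 for Tie1, 0.846 for Egfl7, 0.739 for Cldn5, 0.555 for Kdr, 0.401 for Flt1 and -0.121 for Eng (n = 10 groups). Each gene is itself part of that mean, which raises these values. In single pairs with other members, Flt1 ran from -0.259 (Kdr) to 0.593 (Nos3). Among 10500 other genes with a mean count of at least 100 and a symbol, those most like this mean profile were Fli1 (0.965), Rasip1 (0.965), Pdgfrb (0.961), Myom3 (0.948), Gng11 (0.943), Nlgn3 (0.942), Adgrl4 (0.941), Adamtsl2 (0.940), Cep41 (0.933) and Mocs1 (0.932). Fli1, Rasip1 and Adgrl4 are on the endothelial lists, Pdgfrb is a receptor of pericytes and fibroblasts, and with Spearman's correlation 5 of the 10 were the same. For single genes the closest profiles were those of Pias2 for Cldn5 (0.989), Fgd5 for Cdh5 (0.988), Tgfbr3 for Kdr (0.982), Cachd1 for Flt1 (0.870), Agpat2 for Tek (0.980), Skap2 for Tie1 (0.988), Lpar6 for Nos3 (0.939), Slc39a7 for Eng (0.961) and Atg4d for Egfl7 (0.982). Of these genes Fgd5 is known as an endothelial gene. The 10 groups share controls, drugs and cell preparation, and these likenesses are descriptions.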

How the data were processed

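PolyA RNA was sequenced, and, per the paper, reads were assigned to rat transcripts (Ensembl) with kallisto 0.46.0 (default settings, which do not use strand), a version given in the submitters' processing notes, and summed to Entrez genes with tximport. The authors deposited the resulting estimated counts after removal of genes with low counts. The values are whole numbers and not normalized. Groups came from the sample labels. The deposited columns carry no replicate numbers. Of 14554 identifiers, 14009 had a symbol in RefSeq (GRCr8). A filter of 10 counts in at least 1 library removed 0 genes.

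In R 4.3.3, TMM-scaled counts were fitted with edgeR 4.0.16 (glmQLFit, glmQLFTest; limma 3.58.1) in 1 model of 10 groups with 18 comparisons, and genes were called at a Benjamini-Hochberg FDR below 0.01 over all genes. Log2 CPM used a prior count of 2. The test was checked on simulated data. Depth was 14332827 to 25738297 counts per library. A group with at most 3 counts in every library was treated as at the floor, which covers counting error only. Alternatives were DESeq2 1.42.0 (also its size factors), library size only, no filter, filterByExpr, the compared groups only, an FDR below 0.1 and each library left out in turn. Leaving out 5 libraries together was added after seeing the data.

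The genes and lists were chosen with earlier results of these data known. Named were the 9 endothelial genes, from each list and comparison up to 4 called genes with the largest changes (mean count 100 or more), and genes with the most similar profiles (the 10 closest, and 3 per gene). Atg9b, Agpat2, Cd163, Angpt1, Angpt2 with Ace, Ptprb with 5FU and the within-group neighbours were named after their values were seen. Promoters came from RefSeq. Metabolite data and the authors' own comparison results were not used.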

Additional observations from a re-analysis of the deposited data

Results flagged for a closer look

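In 8 of 90 combinations of a gene and a group, a library stood further from its group than Dixon's 95% criterion allows, where chance gives about 1 in 20, or 4.5. Cldn5 in library 5 of Dox at 24 hours was the highest of its group at 0.173 CPM, which is 3 counts. Cdh5 in library 7 of Ace at 24 hours was the highest at 83.8 CPM, with the next at 59.8 CPM. Tek was lowest in library 1 of 5FU at 6 hours (7.22 CPM) and in library 1 of DMSO1 at 24 hours (8.06 CPM), and highest in library 2 of Ace at 24 hours (11.8 CPM). Nos3 was highest in library 4 of Dox at 6 hours (14.4 CPM) and lowest in library 1 of DMSO1 at 24 hours (10.9 CPM). Egfl7 was lowest in library 2 of 5FU at 24 hours (18.6 CPM). Of these 8 values 4 lie in libraries that were the lowest or highest of their group for at least 7 of the 9 genes.

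In 11 cases the effect of a drug differed between 6 and 24 hours in a test of the difference itself (edgeR, FDR below 0.01), given here as the log2 effect at 24 hours minus that at 6 hours. With 5FU the differences were -0.59 for Cdh5, -0.86 for Tie1, -0.84 for Nos3 and -1.17 for Eng. With Ace they were -0.63 for Flt1 and -0.78 for Nos3. With Dox they were -2.26 for Cdh5, -2.003 for Tie1, -0.43 for Egfl7 and 0.60 for Eng. The fitted difference for Cldn5 with Dox was -6.93, a value that depends on the prior count, since the gene was at the floor at 24 hours, and that is no bound.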

How the results depend on the processing

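No paired analysis was possible because the columns carry no replicate numbers. Over 162 combinations of a gene and a comparison, the number that stayed on their side of the threshold was 160 with DESeq2, 154 with the compared groups only, 157 with library size only, 161 with filterByExpr, 139 at an FDR below 0.1, and 162 with no filter and with the size factors of DESeq2. In these settings no direction was reversed where the gene was called in the main or the alternative fit. Changes of sign in genes called in neither fit were not counted. DMSO1 against DMSO2 at 24 hours moved most: of the 9 genes 2 were called with DESeq2 and 6 at an FDR below 0.1 in place of 0, and of all genes 181 were called with DESeq2, 17 with the compared groups only and 764 at an FDR below 0.1 in place of 63. With the compared groups only, 1588 genes were called between the controls at 6 hours and 2697 for the Ace difference between times. An FDR below 0.1 gave 4751 genes between the controls at 6 hours, 7120 for Ace at 6 hours, 3867 for the Ace difference between times, 7017 for Ace against 5FU at 6 hours with 4 of the 9 genes, and 8 of the 9 genes for the Dox difference between times. Without a library in turn, 0 to 1 of the 9 genes and 10 to 162 of all genes were called between the controls at 24 hours (10 without library 1 of DMSO1 and 162 without its library 4, both at 24 hours). With library size only, the median log2 fold change of all genes was -0.15 for Dox at 6 hours, -0.108 for Dox against Ace at 6 hours and 0.266 for the Dox difference between times, where the Egfl7 call was lost (log2 -0.22, FDR = 0.184) as it was with filterByExpr (FDR = 0.0105), and Flt1 gained one (log2 0.49, FDR = 0.00294). For the 5FU difference between times Cdh5 lost its call with library size only (log2 -0.52, FDR = 0.0162). In that setting the share of higher genes among those called went from 48.9% to 36.8% for 5FU and from 49.1% to 33.8% for Dox at 6 hours, from 48.8% to 61.4% for Ace at 24 hours, from 59.9% to 29.6% and from 31.7% to 80.7% between the controls at 6 and 24 hours, from 47.9% to 77.1% and from 52.5% to 64.8% for the Ace and Dox differences between times, and from 49.4% to 36.7% for Dox against Ace at 6 hours. The numbers of the 9 genes called lower and higher stayed at those given for the 6 drug comparisons, and between the controls at 6 hours 9 were called lower. The cause was not tested.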
